A study of Mus musculus with 9 samples.

Results

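The genes described here are 10 genes of hepatic fatty acid synthesis that are controlled by, or work with, the transcription factor SREBP1: Srebf1, Thrsp, Mid1ip1, Acly, Acaca, Fasn, Me1, Elovl6, Scd1 and Pnpla3. The genes were named by symbol for their role, with earlier results of these data known. All 10 were found among the 23337 genes of the count tables, and all 10 were among the 12587 genes that passed the filter on low counts and were tested, Pnpla3 only through its HFD libraries. They were measured by bulk RNA sequencing in livers of wild-type (WT) mice, 3 livers for each diet. The ND group received a normal diet. The HFD group received a 60% high-fat diet. The HFD_HDCA group received the same 60% diet with 0.25% hyodeoxycholic acid (HDCA), a secondary bile acid. All 9 mice were on their diet for 12 weeks from 8 weeks of age, and the liver was taken in the fed state. No transgene or deletion was carried by any group, and the labels do not give sex, strain, cage or litter.

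SREBP1 is made as a precursor in the membrane of the endoplasmic reticulum, where SCAP escorts it and INSIG proteins hold it back. After cleavage in the Golgi its released part enters the nucleus and binds sterol regulatory elements in the promoters of lipogenic genes. In liver, Srebf1 transcription is raised by feeding through insulin and the oxysterol receptor LXR, and its own product acts on its promoter. The pathway turns citrate from glycolysis into palmitate, which is then elongated, desaturated and stored as triglyceride, and it is active in fed and steatotic liver.

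Levels differed widely between the genes when compared per length, as FPKM (fragment numbers corrected for gene length and for sequencing depth, from the deposited gene tables). Over the 9 libraries the mean was 727 FPKM for Scd1, 108 for Thrsp, 60.5 for Me1, 42.5 for Acly, 37.5 for Srebf1, 26.3 for Fasn, 19.4 for Mid1ip1, 11.1 for Elovl6, 7.36 for Acaca and 0.387 for Pnpla3. Scd1 stood above Thrsp in 9 of 9 libraries, Elovl6 above Acaca in 9, and Acaca above Pnpla3 in 9. Thrsp stood above Me1 in only 5 libraries and Fasn above Mid1ip1 in only 5, so neither pair has a stable order across diets. Apart from Acaca and Pnpla3, the ranges of every pair of neighbours in this order overlapped.

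The 10 genes lie on 6 autosomes and the X chromosome (GENCODE M21 on GRCm38, the assembly of mm10). Chromosome 11 carries Srebf1 (chr11:60199089-60222581, minus strand), Acaca (chr11:84129672-84401651, plus), Acly (chr11:100476353-100528000, minus) and Fasn (chr11:120805846-120824547, minus). The others are Thrsp (chr7:97412938-97417730, minus), Me1 (chr9:86581371-86695953, minus), Elovl6 (chr3:129532355-129638495, plus), Pnpla3 (chr15:84167837-84187236, plus), Scd1 (chr19:44394455-44407879, minus) and Mid1ip1 (chrX:10715013-10719690, plus). Genes on the opposite strand overlap several of them, among them Rai1 at Srebf1 and Gm14493 at Mid1ip1, and the strand setting of the counting was not stated exactly, so reads of such partners cannot be told apart. The counts are per gene and do not separate the transcripts SREBP-1a and SREBP-1c of Srebf1.

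Promoters are shown for the regulator (Srebf1) and the central synthase (Fasn), because SREBP1 acts through sequences of this kind. Also shown are those of the gene called in both HFD comparisons (Mid1ip1) and the gene whose own reads came mostly from 1 HFD library (Pnpla3). Each is the 250 bases before a RefSeq transcript start on GRCm38.p6, written 5′ to 3′ on the strand of the gene. Capitals mark every match, on either strand, to the sterol regulatory element core TCACCC, the CCAAT box CCAAT, the GC box GGGCGG and the E-box CACGTG, and neighbouring capitals can belong to a pair of overlapping matches.
Srebf1, the third start, chr11:60210472-60210721, minus: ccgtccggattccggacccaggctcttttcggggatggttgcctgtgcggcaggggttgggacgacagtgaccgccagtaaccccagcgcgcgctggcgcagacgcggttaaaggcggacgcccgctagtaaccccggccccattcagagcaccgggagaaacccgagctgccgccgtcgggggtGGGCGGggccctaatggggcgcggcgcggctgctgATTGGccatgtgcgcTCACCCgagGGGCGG
Fasn, chr11:120824548-120824797, minus: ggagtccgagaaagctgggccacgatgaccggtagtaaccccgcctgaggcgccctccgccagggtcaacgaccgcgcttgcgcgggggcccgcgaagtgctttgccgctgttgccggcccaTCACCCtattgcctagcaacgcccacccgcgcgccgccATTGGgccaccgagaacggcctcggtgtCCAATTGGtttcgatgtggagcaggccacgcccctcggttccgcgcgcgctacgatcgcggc
Mid1ip1, chrX:10717115-10717364, plus: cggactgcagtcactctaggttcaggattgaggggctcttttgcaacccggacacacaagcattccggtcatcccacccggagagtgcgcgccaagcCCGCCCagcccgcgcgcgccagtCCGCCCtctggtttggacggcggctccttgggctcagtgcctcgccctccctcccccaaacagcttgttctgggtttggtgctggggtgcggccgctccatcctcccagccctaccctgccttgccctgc
Pnpla3, chr15:84167566-84167815, plus: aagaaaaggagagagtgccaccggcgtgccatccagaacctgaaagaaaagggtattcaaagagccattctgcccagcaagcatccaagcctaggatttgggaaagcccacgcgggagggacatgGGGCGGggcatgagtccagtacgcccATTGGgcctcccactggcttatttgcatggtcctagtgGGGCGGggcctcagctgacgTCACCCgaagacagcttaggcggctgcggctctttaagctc

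RefSeq lists 3 starts of Srebf1, and the third is printed because it alone holds the sterol regulatory element core. The first has 1 CCAAT box and the second 2 GC boxes, with no core in either. The third Srebf1 window holds a sterol regulatory element core 15 to 10 bases before the start, a CCAAT box 30 to 26 bases before it and 2 GC boxes. The Fasn window holds the core 128 to 123 bases before its start and 3 CCAAT boxes, while the Pnpla3 window has the core at 41 to 36 bases, 1 CCAAT box and 2 GC boxes. The Mid1ip1 window has 2 GC boxes and neither of the other elements. RefSeq promoters were found for 9 of the 10 genes, with 12 starts, and Scd1 had no entry. The sterol regulatory element core was present at 4 of these 12 starts (Srebf1, Fasn, Me1 and Pnpla3), against 13.8% of 32841 mouse promoter windows of the same length. The CCAAT box was present at 6 of 12 starts against 33.9% of all windows, the GC box at 6 against 32.7%, and the E-box at 0 against 6.02%. The core and the CCAAT box occurred together at 3 of 12 starts against 4.26% of all windows. Such matches describe letters in a window and do not show binding. Several of the 12 windows lie inside the annotated gene, among them the only ones of Acaca (chr11:84195188-84195437) and Mid1ip1. They therefore need not be the main promoters. Of the 12 starts, 3 are of Srebf1 and 2 of Me1.

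Reads assigned to genes numbered 16994400 to 20509200 per library, so that 3 reads correspond to 0.152 to 0.182 CPM. CPM are counts of a gene scaled to the library's reads on genes, with TMM factors that adjust for composition. The 7 hepatocyte markers found in the files summed to 85241 to 125748 CPM, and skeletal muscle and pancreas markers had at most 2 reads each in any library. Some libraries stood apart from their group. In HFD 1 the clock gene Dbp reached 85.8 CPM, whereas the other HFD livers had 2.27 and 1.41, and its Arntl was 4.71 CPM where they had 41.1 and 37.6. The ND livers also differed in these genes, with Dbp from 0.752 to 14.6 CPM and Arntl from 17.3 to 42.9 CPM. HFD_HDCA 1 had the acute phase gene Saa1 at 3371 CPM against 23.4 and 38.0 in its group. The 7 macrophage markers summed to 371 to 437 CPM in ND, to 455, 130 and 662 in HFD 1, HFD 2 and HFD 3, and to 324 to 650 in HFD_HDCA. The 7 adipocyte markers summed to 15.6 to 21.0 CPM in ND and to 21.8 to 27.1 in HFD_HDCA. In HFD 1, HFD 2 and HFD 3 they summed to 18.4, 31.1 and 19.5 CPM. HFD 2 carried 29 reads of Adipoq, 15 of Lep and 225 of Cfd. In HFD 3 Adipoq, Lep, Plin1 and Retn were all at 0 reads, while Cfd had 77. The markers Lipe and Adrb3 were not raised in HFD 2, at 12.6 and 3.74 CPM against 12.9 and 4.39 in HFD 1.

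Srebf1 and Thrsp were lower with HDCA than on either other diet. Against HFD, 4 of the 10 genes fell: Thrsp, 10.8-fold lower (95% interval 5.61 to 20.9), Fasn, 7.18-fold lower (3.32 to 15.5), Srebf1, 5.82-fold lower (3.87 to 8.75), and Mid1ip1, 3.39-fold lower (2.53 to 4.54). Against ND, Thrsp was 5.54-fold lower (2.94 to 10.5) and Srebf1 2.80-fold lower (1.89 to 4.15). The high-fat diet alone raised only Mid1ip1 past the threshold, 2.30-fold (1.73 to 3.06). A gene is called when its p-value, from edgeR's quasi-likelihood test corrected over the 12587 genes with the Benjamini-Hochberg procedure, is under 0.05. Bulk RNA cannot tell fewer cells of a type from less RNA per cell. All 3 comparisons share libraries with one another, so their values are set side by side and are not independent.

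In HFD against ND, 1 of the 10 genes was called higher and 0 lower, while 0.477% of all genes tested were called higher. Pnpla3 was tested only because its HFD reads passed the filter, which sets its direction against HFD, so the counts that follow are over the other 9 genes. All 9 fold changes were positive, with a median of 0.85 on the log2 scale against 0.02 over all genes. An unadjusted p under 0.05 was reached by 4 of them, all higher, against 6.67% of all genes, and by 0 lower, against 4.83%. The 3 HFD libraries lay above all 3 ND libraries for Srebf1, Thrsp, Mid1ip1 and Fasn, while 10.9% of all genes separated in this way. DESeq2, which called more of all genes than edgeR in each comparison, called Srebf1 and Mid1ip1 higher and 0 lower.

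In HFD_HDCA against HFD, 4 of the 10 genes were called lower and 0 higher, while 1.73% of all genes were called lower. Pnpla3 again aside, all 9 fold changes were negative, with a median of -1.76 on the log2 scale against -0.00 over all genes. An unadjusted p under 0.05 was reached by 7 of the 9, against 10.4% of all genes, and by 0 higher, against 11.6%. The HFD_HDCA libraries lay below all HFD libraries for 6 of the 9, against 11.1% of all genes, and overlapped for Me1, Elovl6 and Scd1. DESeq2 called 6, the 4 above with Acly and Acaca, and 0 higher. Of all genes it called 1036 in either direction, where edgeR called 428.

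In HFD_HDCA against ND, 2 of the 10 genes were called lower and 0 higher, while 2.82% of all genes were called lower. All 9 fold changes other than that of Pnpla3 were negative, with a median of -1.01 on the log2 scale against 0.03 over all genes. Pnpla3 had fewer than 10 reads in each of these 6 libraries. An unadjusted p under 0.05 was reached by 6 of the 9 lower, against 11.4% of all genes, and by 0 higher, against 14.8%. The HFD_HDCA libraries lay below all ND libraries for 7 of the 9, against 16.1%. DESeq2 called 4, adding Mid1ip1 and Acaca, and 0 higher. Of all genes it called 1321 in either direction, where edgeR called 815.

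**Figure D1:**
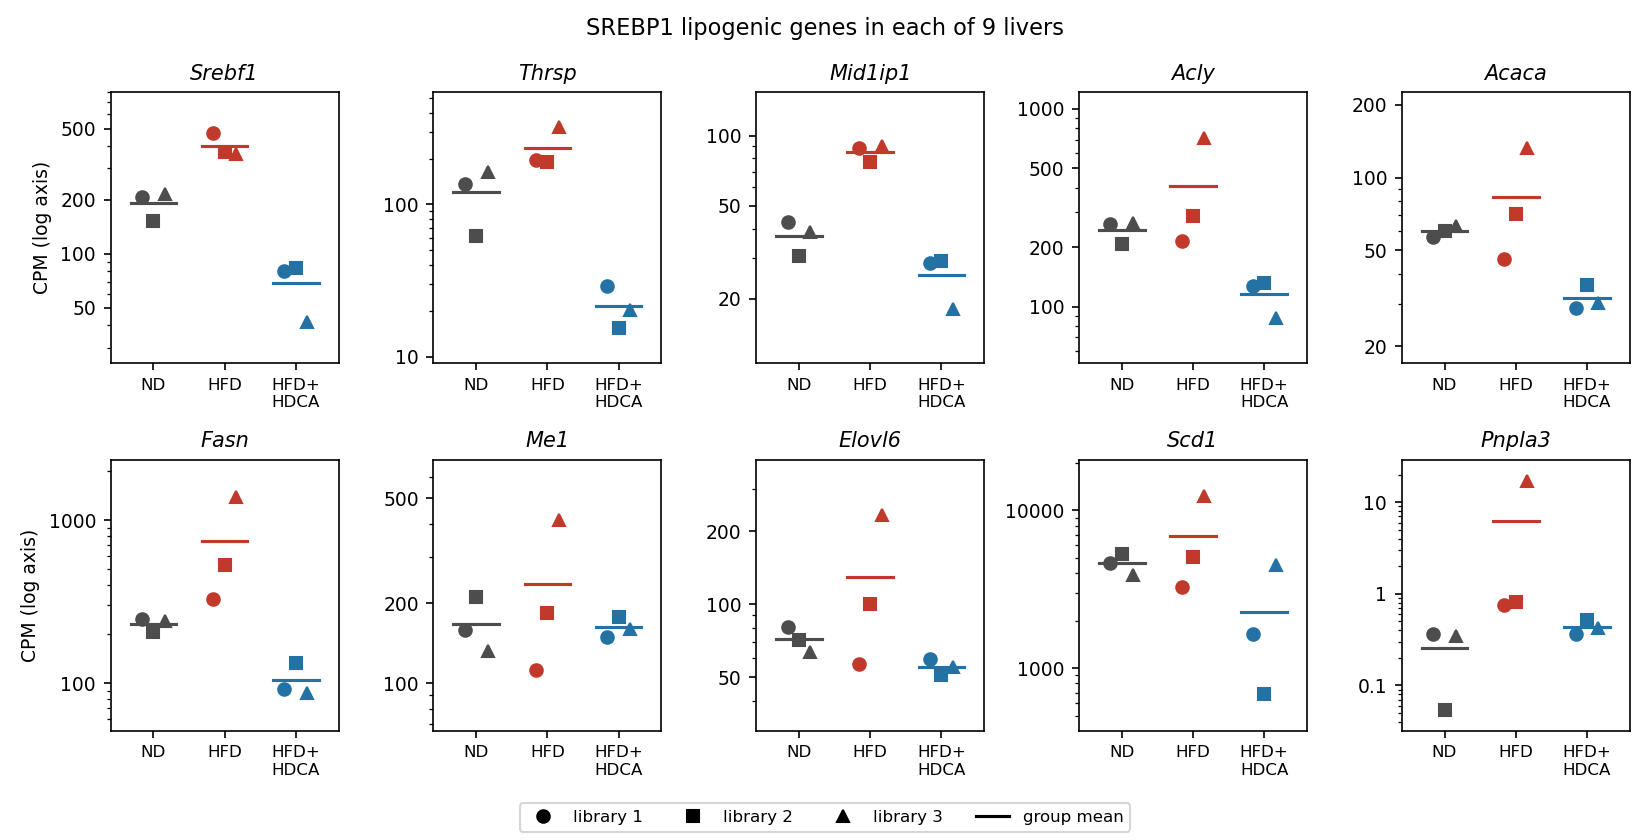
Level of each gene in CPM on a log axis, with a separate axis range for each gene. Each point is a liver, circles are library 1, squares library 2 and triangles library 3, and the bar is the mean of the diet's 3 libraries. In Srebf1 and Mid1ip1 the 3 HFD points lie close together above ND, whereas in Acly, Acaca, Fasn, Me1, Elovl6, Scd1 and Pnpla3 the HFD 3 triangle lies well above the other HFD points.

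Srebf1, which encodes SREBP1, stood at 209, 153 and 216 CPM in ND 1, ND 2 and ND 3, at 471, 369.6 and 361 CPM in the HFD libraries, and at 80.8, 84.0 and 41.8 CPM in the HFD_HDCA libraries. The 3 diets did not overlap, with every HFD library above every ND library and every HFD_HDCA library below both. The log2 fold change was 1.06 ± 0.25 (SE) for HFD against ND with an adjusted p of 0.101, so this difference did not pass the threshold. It was -2.54 ± 0.26 for HFD_HDCA against HFD (adjusted p = 0.00283), and the call was made in each of the 9 fits that left out 1 library. Against ND, Srebf1 fell by 1.48 ± 0.26 on the log2 scale (adjusted p = 0.0112), a call lost when ND 1 was left out.

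Thrsp encodes Spot 14, a small nuclear and cytosolic protein that promotes lipogenesis. Its level was 136, 61.7 and 163 CPM in the ND libraries, 195, 188 and 322 CPM in the HFD libraries and 29.3, 15.4 and 20.3 CPM in the HFD_HDCA libraries. Every HFD_HDCA library lay below every other library, and the lowest HFD library was above the highest ND library. Fitted log2 fold changes were 0.97 ± 0.38 for HFD against ND (adjusted p = 0.368), -3.44 ± 0.42 for HFD_HDCA against HFD (adjusted p = 0.00625) and -2.47 ± 0.40 for HFD_HDCA against ND (adjusted p = 0.0119). The second of these was called in all 9 fits with a library left out, the last in 7 of 9, not without ND 1 or HFD_HDCA 3.

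Mid1ip1 encodes a paralogue of Spot 14 that binds acetyl-CoA carboxylase and promotes its polymerization. It stood at 42.6, 30.4 and 38.6 CPM in ND, at 88.9, 77.2 and 90.4 CPM in HFD and at 28.4, 29.2 and 18.0 CPM in HFD_HDCA. The HFD libraries were the most alike of any of the 10 genes, with a coefficient of variation of 8.49%. Mid1ip1 rose with HFD by 1.20 ± 0.19 on the log2 scale (adjusted p = 0.0189), and this call was lost when ND 1, ND 2, ND 3 or HFD 3 was left out, the last with an adjusted p of 0.0631. It fell with HDCA by 1.76 ± 0.19 on the log2 scale (adjusted p = 0.00283), in all 9 fits with a library left out. Against ND the log2 fold change was -0.56 ± 0.19 (adjusted p = 0.0981), although no HFD_HDCA library reached the lowest ND library.

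The enzymes of the palmitate route behaved less evenly among the HFD livers. Acly, ATP citrate lyase, which makes cytosolic acetyl-CoA, stood at 262, 207 and 266 CPM in ND, at 216, 286 and 716 CPM in HFD and at 128, 132 and 88.0 CPM in HFD_HDCA. Acaca, acetyl-CoA carboxylase 1, which makes malonyl-CoA for synthesis, stood at 56.6, 60.0 and 63.0 CPM in ND, at 45.9, 70.7 and 133 CPM in HFD and at 28.9, 36.0 and 30.3 CPM in HFD_HDCA. For both genes HFD 1 lay within or below the ND range and HFD 3 stood far above, while all HFD_HDCA libraries were the lowest of the 9.

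Neither gene was called in the 3 comparisons, and both were close to the threshold in HFD_HDCA against HFD. Acly had a log2 fold change of -1.81 ± 0.41 there (adjusted p = 0.0520) and of -1.08 ± 0.41 against ND (adjusted p = 0.137). Acaca had -1.39 ± 0.32 (adjusted p = 0.0534) and -0.92 ± 0.32 (adjusted p = 0.118). For HFD against ND the values were 0.73 ± 0.40 (adjusted p = 0.556) and 0.47 ± 0.32 (adjusted p = 0.640). Without HFD 3, Acly fell against HFD by 1.12 on the log2 scale (adjusted p = 0.0362) and against ND by 1.08 (adjusted p = 0.0141). Acaca then fell against ND by 0.92 (adjusted p = 0.0150), and its value against HFD was -0.88 (adjusted p = 0.0524).

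Fasn, fatty acid synthase, which assembles palmitate from malonyl-CoA, stood at 247, 205 and 241 CPM in ND, at 329, 527 and 1386 CPM in HFD and at 92.4, 133 and 86.8 CPM in HFD_HDCA. The 3 diets did not overlap, and the HFD libraries spanned 4.22-fold, a wider range than in ND. The log2 fold change was 1.69 ± 0.47 for HFD against ND (adjusted p = 0.180), and without HFD 3 it was 0.89 (adjusted p = 0.189). Fasn fell with HDCA by 2.84 ± 0.49 on the log2 scale (adjusted p = 0.0220), and by 2.04 without HFD 3 (adjusted p = 0.0119). That call was lost without HFD_HDCA 1 or HFD_HDCA 3, and was made in the other 7 such fits. Against ND the value was -1.15 ± 0.46 (adjusted p = 0.160).

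Me1, cytosolic malic enzyme, which supplies NADPH for synthesis, had the smallest fold change of the 10 genes in both comparisons with HDCA. It stood at 159, 212 and 132 CPM in ND, at 112, 185 and 411 CPM in HFD and at 149.6, 177 and 161 CPM in HFD_HDCA. All HFD_HDCA values lay inside the ND range. The log2 fold change of HFD_HDCA against ND was -0.05, with a 95% interval from -0.97 to 0.88. Against HFD it was -0.54 (95% interval -1.47 to 0.39, adjusted p = 0.477), and without HFD 3 it was 0.13.

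Elovl6, which elongates palmitate to stearate, stood at 80.9, 71.2 and 63.8 CPM in ND, at 56.4, 101 and 233 CPM in HFD and at 59.2, 51.1 and 55.4 CPM in HFD_HDCA. HFD 1 lay below ND and inside the HFD_HDCA range. Its log2 fold change was 0.85 ± 0.43 for HFD against ND (adjusted p = 0.513), -1.24 ± 0.43 for HFD_HDCA against HFD (adjusted p = 0.146) and -0.38 ± 0.43 for HFD_HDCA against ND (adjusted p = 0.603). The second value was -0.51 without HFD 3.

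Scd1, stearoyl-CoA desaturase 1, which introduces the double bond of oleate, carried most reads of the set. It stood at 4630.0, 5286 and 3913 CPM in ND, at 3267, 5076 and 12350.5 CPM in HFD and at 1647, 682 and 4517 CPM in HFD_HDCA. HFD_HDCA 3 lay within the ND range and was 6.62 times HFD_HDCA 2, the widest ratio of the 10 genes within HFD_HDCA. No comparison was called, with log2 fold changes of 0.58 (95% interval -0.99 to 2.15, adjusted p = 0.814), -1.60 (-3.20 to 0.01, adjusted p = 0.230) and -1.01 (-2.60 to 0.57, adjusted p = 0.383) in the order above. Without HFD 3 the first of these was -0.14. In HFD_HDCA 3 the CPM of Scd1 was 108 times that of Srebf1, against 20.4 and 8.12 times in HFD_HDCA 1 and HFD_HDCA 2 and 18.1 to 34.6 times in ND.

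Pnpla3, a lipid droplet protein of the patatin-like phospholipase family, had 16 reads or fewer in 8 of the 9 livers. It had 7, 1 and 6 reads in ND, 14, 16 and 331 reads in HFD and 6, 9 and 7 reads in HFD_HDCA. HFD 3 reached 17.2 CPM, and no other library exceeded 0.808 CPM. The gene passed the count filter through HFD. The log2 fold change of 4.58 ± 1.40 for HFD against ND (adjusted p = 0.242) was 1.59 without HFD 3 (adjusted p = 0.365), so its size comes from that library. In HFD_HDCA against HFD it was -3.82 ± 1.31 (adjusted p = 0.143), and -0.83 without HFD 3.

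**Figure D2:**
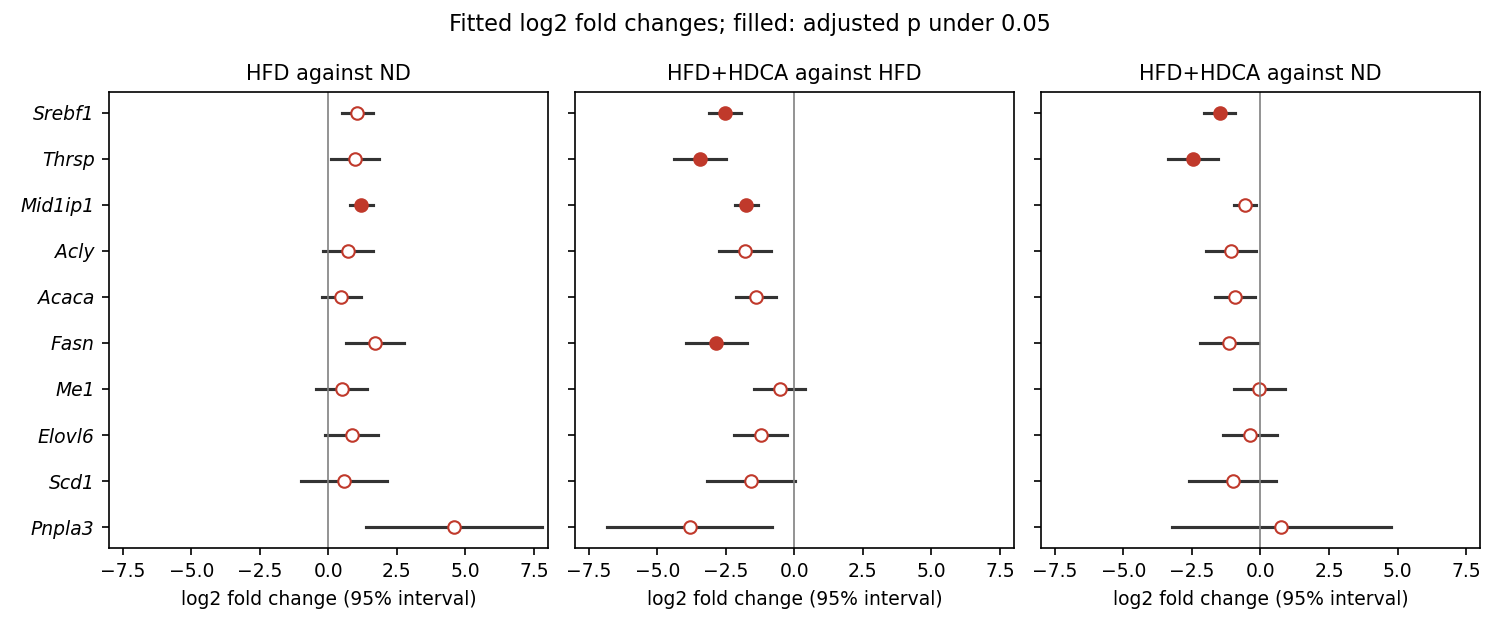
Fitted log2 fold changes with 95% intervals for the 10 genes in the 3 comparisons, filled where the adjusted p was under 0.05 and open otherwise. All 10 points lie right of 0 in HFD against ND and left of 0 in HFD_HDCA against HFD, with 1 and 4 filled. The interval of Pnpla3, whose direction against HFD the filter sets, is the widest.

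The genes thus differed in how evenly the HFD livers carried them. HFD 3 was the highest HFD library for 9 of the 10 genes, Srebf1 being the exception, and HFD 1 was the lowest for 7. Relative to the mean of HFD 1 and HFD 2, HFD 3 had 0.860 times the Srebf1 CPM, 1.09 times the Mid1ip1 and 1.68 times the Thrsp. The enzymes stood higher there, at 2.28 times for Acaca, 2.77 for Me1, 2.85 for Acly, 2.96 for Scd1, 2.97 for Elovl6 and 3.24 for Fasn, and Pnpla3 at 22.0 times. A ratio of 2 or more in this library was seen in 3.34% of all genes tested. The mean of HFD 1 and HFD 2 was 2.18 times the ND mean for Srebf1, 2.23 for Mid1ip1, 1.85 for Fasn and 1.59 for Thrsp. It was 1.02 times for Acly, 0.974 for Acaca, 0.886 for Me1, 1.09 for Elovl6 and 0.905 for Scd1. HFD 3 also had the highest macrophage sum given above, and HFD 1 the clock gene values that set it apart; their part in these levels was not tested.

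The livers were ordered differently by 2 sums over the genes. The mean of the 10 genes' log2 CPM, each centred on its mean over the 9 libraries, was 0.11, -0.33 and 0.05 in ND, 0.32, 0.66 and 1.92 in HFD and -0.85, -0.92 and -0.95 in HFD_HDCA. Pnpla3, which passed the filter through HFD, entered this mean at -2.92 in ND 2, from 1 read, and at 4.80 in HFD 3. Without Pnpla3 the mean was 0.20, -0.04 and 0.14 in ND and 0.32, 0.68 and 1.60 in HFD. In HFD_HDCA it then lay between -1.01 and -0.87. Part of the low ND 2 value and of the high HFD 3 value thus came from Pnpla3. By either mean the HFD_HDCA livers lay close together, while HFD 3 stood well above the other HFD livers. Single genes could differ among the HFD_HDCA livers. Centred Scd1 was -1.13, -2.40 and 0.33 there, and centred Srebf1 was -1.08, -1.02 and -2.03. The 10 genes took 0.597, 0.639 and 0.519% of all gene reads in ND, 0.510, 0.664 and 1.64% in HFD and 0.206, 0.133 and 0.489% in HFD_HDCA. The share put HFD 1 below every ND liver and HFD_HDCA 3 highest in its group, where the mean score put HFD 1 above every ND liver and HFD_HDCA 3 lowest of all. Most of each share was Scd1, which alone took 1.27% in HFD 3 and 0.440% in HFD_HDCA 3.

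Within the set, the pairs that moved most alike over the 9 livers were found from the root mean square difference of their centred log2 CPM. The closest were Acly and Acaca at 0.25, Acaca and Elovl6 at 0.31, Me1 and Elovl6 at 0.33, Acly and Elovl6 at 0.40, and Srebf1 and Mid1ip1 at 0.44. The farthest was Scd1 with Pnpla3 at 1.80. After Mid1ip1, Srebf1 was about equally near to Thrsp (0.63), Fasn (0.64) and Acly (0.65). Farther from it were Acaca (0.76), Elovl6 (0.94), Scd1 (1.13), Me1 (1.15) and Pnpla3 (1.78). The ratio of Fasn CPM to Srebf1 CPM was 1.18, 1.35 and 1.11 in ND, 0.698, 1.43 and 3.84 in HFD and 1.14, 1.58 and 2.08 in HFD_HDCA. HFD 1, with the highest Srebf1 of all 9 livers, thus had the lowest ratio and HFD 3 the highest. These are descriptions across 9 livers that share diets and depth.

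**Figure D3:**
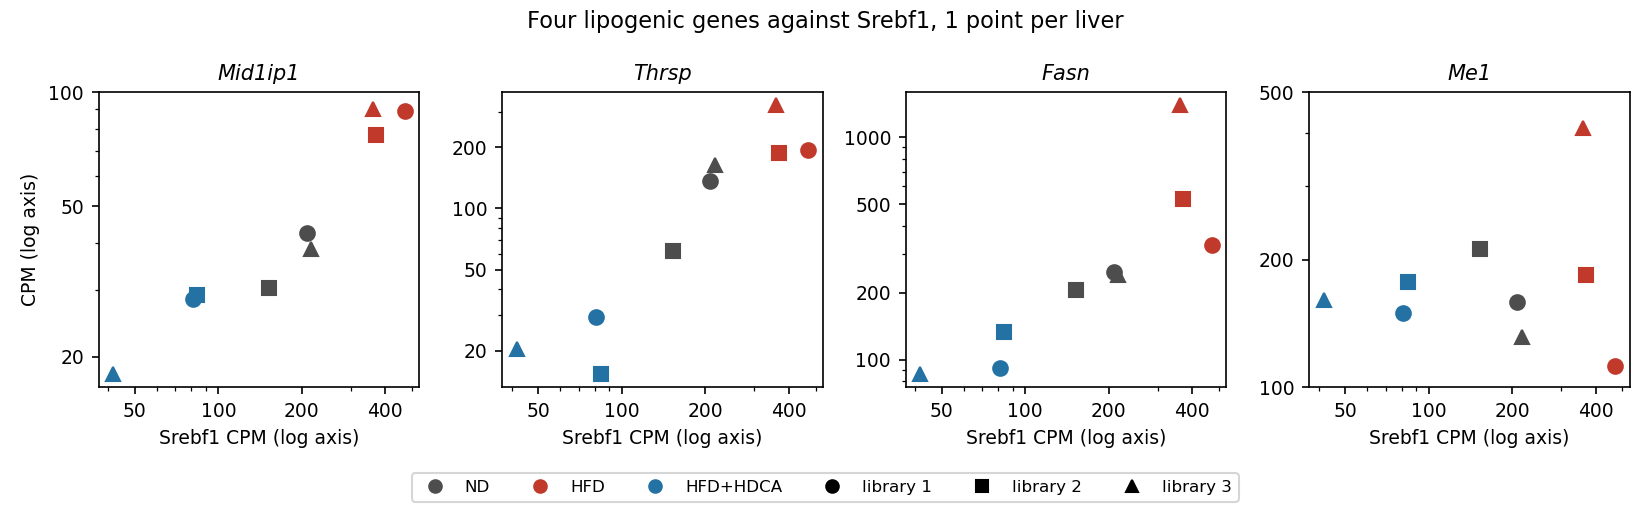
CPM of Mid1ip1, Thrsp, Fasn and Me1 (vertical, log axis) against the CPM of Srebf1 (horizontal, log axis), 1 point per liver, with colour for diet and shape for library number. Mid1ip1 climbs with Srebf1 through all 3 diets, Fasn spreads from 329 to 1386 CPM among HFD livers of similar Srebf1, and Me1 shows HFD 3 above and HFD 1 below the rest.

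Outside the set, the 8 genes of 9395 with a mean of at least 5 CPM whose centred log2 CPM lay nearest the mean of the 10 genes were Aqp8 at a root mean square difference of 0.35, Gpam at 0.38, Pklr at 0.39, Actg1 at 0.40, Gbe1 at 0.41, Tfrc at 0.42, Pgd at 0.42 and D130043K22Rik at 0.43. Without HFD 3 only 1 of these 8 was again among the nearest 8, and without HFD 2 only 4, while 6 or 7 were when any other library was left out. The mean of the 10 genes includes Pnpla3, which passed the filter through HFD, and likeness to the mean without it was not computed. The 8 nearest to Srebf1 alone were Slc22a7 (0.50), Acot11 (0.51), Per2 (0.52), Tuba1c (0.53), Ppl (0.53), Ppp1r3b (0.56), Bhlhe40 (0.56) and Spc24 (0.57). Of these, 3 were again among the nearest 8 without HFD_HDCA 3, 5 without HFD 1, and 6 to 8 without any other library. Per2 and Bhlhe40 are clock genes, and clock genes set HFD 1 apart; the part of this in the likeness was not tested.

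The other genes of the pathway were read in 9 lists of 45 genes, of which 43 were tested. Scd3 and Scd4 had too few counted reads to be tested. Their deposited FPKM were higher than these counts, with means of 12.2 in ND, 20.6 in HFD and 5.86 in HFD_HDCA for Scd3. For Scd4 the means were 2.77, 4.35 and 1.33. The cause of this disagreement was not tested. In HFD against ND, 1 was called higher (Pklr) and 0 lower, with 0.477% of all genes called in each direction. In HFD_HDCA against HFD, 1 was higher (Mlycd) and 3 were lower (Pklr, Dgat2 and Abca1), while 1.67% of all genes were called higher and 1.73% lower. In HFD_HDCA against ND, 1 was higher (Mlycd) and 2 were lower (Lpin1 and Abca1), while 3.65% of all genes were called higher and 2.82% lower. The median log2 fold changes of the 43 genes were 0.10, -0.25 and -0.06 in the same order. At an unadjusted p under 0.05, 18.6% of the 43 were higher and 2.33% lower in HFD against ND, where 6.67% and 4.83% of all genes were. In HFD_HDCA against HFD 4.65% were higher and 25.6% lower, where 11.6% and 10.4% of all genes were. Against ND 14.0% were higher and 14.0% lower, close to the 14.8% and 11.4% of all genes. DESeq2, which called more of all genes than edgeR in each comparison, called 3 higher and 0 lower, 1 and 7, and 3 and 2.

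Substrate supply was read from 4 genes. Pklr, liver pyruvate kinase, stood at 121, 101 and 113 CPM in ND, at 209, 355 and 496 CPM in HFD and at 123, 106 and 94.6 CPM in HFD_HDCA. It rose with HFD by 1.66 ± 0.26 on the log2 scale (adjusted p = 0.0231) and fell with HDCA by 1.71 ± 0.26 (adjusted p = 0.0118). The HFD_HDCA and ND libraries overlapped, with a log2 fold change of -0.05 ± 0.26. The rise was lost when ND 1, ND 2, ND 3, HFD 2 or HFD_HDCA 2 was left out and with only the 2 groups compared (adjusted p = 0.0695). The fall was lost when HFD_HDCA 3 was left out. Of the other 3 genes of substrate supply, Slc25a1, Acss2 and Aacs, 0 were called by edgeR, and Aacs was nearest with -2.94 ± 0.65 in HFD_HDCA against HFD (adjusted p = 0.0513). DESeq2 called Aacs lower there (adjusted p = 0.000425).

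In triglyceride assembly edgeR called 1 of 4 genes lower in each comparison with HDCA. These were Dgat2 against HFD and Lpin1 against ND, where 1.73% and 2.82% of all genes were called lower. DESeq2 called 3 of the 4 lower against HFD, among them Gpam (-1.19 on the log2 scale, adjusted p = 0.00278). By edgeR Gpam had -1.19 ± 0.32 there (adjusted p = 0.0809). Lpin1, a phosphatidate phosphatase, stood at 119.7, 149 and 86.5 CPM in ND, at 75.7, 27.2 and 85.4 CPM in HFD and at 19.1, 18.9 and 19.0 CPM in HFD_HDCA. It fell against ND by 2.64 ± 0.40 on the log2 scale (adjusted p = 0.00898), and against HFD its value was -1.72 ± 0.39 (adjusted p = 0.0501), which DESeq2 called (adjusted p = 2.63e-05). Dgat2, which catalyses the last step of triglyceride synthesis, stood at 428, 443 and 430.0 CPM in ND, at 598, 534 and 449 CPM in HFD and at 330.4, 336 and 368 CPM in HFD_HDCA. It fell against HFD by 0.61 ± 0.13 on the log2 scale (adjusted p = 0.0317), a call made in only 2 of the 9 fits with a library left out, those without HFD 1 or HFD 3, and lost with only the 2 groups compared (adjusted p = 0.117).

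Mlycd, malonyl-CoA decarboxylase, which removes the product of acetyl-CoA carboxylase, moved the other way. It stood at 91.9, 105 and 89.2 CPM in ND, at 92.1, 99.4 and 86.2 CPM in HFD and at 120.1, 138 and 138 CPM in HFD_HDCA, all 3 above every other library. It rose by 0.51 ± 0.11 on the log2 scale against HFD (adjusted p = 0.0367) and by 0.47 ± 0.11 against ND (adjusted p = 0.0330). With library sizes as the only scaling the values were 0.43 and 0.39 and neither passed (adjusted p = 0.0727 and 0.0806). Each call was also lost in 6 and 4 of the 9 fits with a library left out, among them those without ND 1, ND 2, ND 3 or HFD_HDCA 3. The call against HFD was also lost with only the 2 groups compared (adjusted p = 0.119) and from FPKM (adjusted p = 0.0864). Acacb, acetyl-CoA carboxylase 2 at the mitochondrial surface, stood at 18.7, 50.0 and 173 CPM in HFD and was not called.

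**Figure D4:**
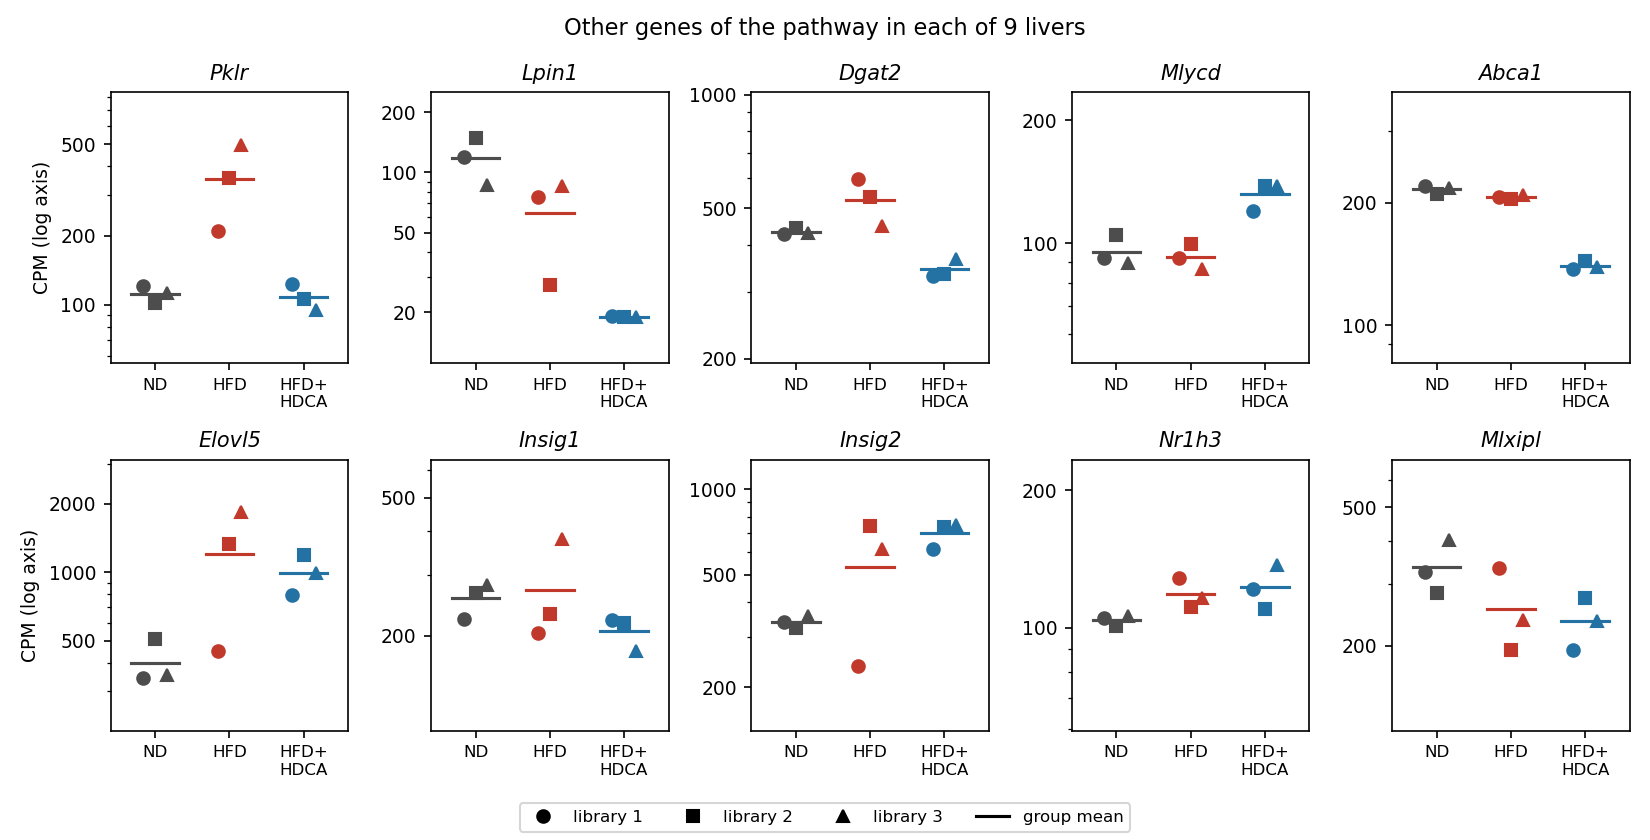
CPM on a log axis, with a range per gene, of 10 other genes of the pathway in the 9 livers, drawn as in the plot of the 10 lipogenic genes. Lpin1 is lowest in all 3 HFD_HDCA livers, Abca1 is tight within each diet and lower with HDCA, and Elovl5, Insig1, Insig2, Nr1h3 and Mlxipl overlap between HFD and HFD_HDCA.

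Among the genes that hold or release SREBP1, edgeR called 0 in each comparison, and DESeq2 called Insig2 higher in HFD_HDCA against ND. Of the 6 genes of SREBP processing, Insig2 stood at 341, 325 and 357 CPM in ND, at 239, 740.5 and 616 CPM in HFD and at 614, 737 and 750.4 CPM in HFD_HDCA, above every ND library. Its log2 fold change against ND was 1.04 ± 0.33 (adjusted p = 0.0941). The same difference passed with DESeq2 (1.02, adjusted p = 0.0137), with only the 2 groups compared (adjusted p = 0.00299) and without HFD 1 (adjusted p = 0.00252), and HFD against ND also passed without HFD 1 (0.99, adjusted p = 0.0102). Insig1, itself a target of SREBPs, had -0.39 ± 0.22 in HFD_HDCA against HFD (adjusted p = 0.316), and Scap had 0.09 ± 0.12 (adjusted p = 0.703). Srebf2, the paralogue that drives cholesterol synthesis, had -0.09 ± 0.18 (95% interval -0.48 to 0.30, adjusted p = 0.804), and edgeR called 0 of its 5 targets listed in each of the 3 comparisons. DESeq2 also called 0 of these 5. Of these targets, Idi1 and Sqle, enzymes of sterol synthesis, were called higher in HFD_HDCA against HFD without HFD 3 (1.06 and 2.07, adjusted p = 0.0217 and 0.0359).

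The 8 transcription factor genes were not called by edgeR or DESeq2 in any of the 3 comparisons. Nr1h3, which encodes LXR alpha, stood at 105, 101 and 106 CPM in ND, at 128, 111 and 116 CPM in HFD and at 122, 109.6 and 137 CPM in HFD_HDCA. Mlxipl, which encodes the glucose-responsive factor ChREBP, had -0.12 ± 0.21 on the log2 scale in HFD_HDCA against HFD (adjusted p = 0.785) and -0.52 ± 0.21 against ND (adjusted p = 0.155). Among 6 LXR targets outside lipogenesis, Abca1, the cholesterol efflux transporter, stood at 219.9, 210.5 and 217 CPM in ND, at 206, 204 and 208 CPM in HFD and at 137, 144 and 139 CPM in HFD_HDCA. It fell by 0.56 ± 0.09 on the log2 scale against HFD (adjusted p = 0.0140) and by 0.62 ± 0.09 against ND (adjusted p = 0.00542), and edgeR and DESeq2 called none of the other 5. The call against HFD was lost without HFD_HDCA 3 (adjusted p = 0.0607) and with only the 2 groups compared (adjusted p = 0.0689). Without HFD 1, Abcg8, a sterol exporter subunit, was called lower in HFD against ND and higher in HFD_HDCA against HFD. Abcg1, another of these targets, was called lower in HFD_HDCA against HFD without HFD 2 (-0.86, adjusted p = 0.0459).

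Among the 5 tested genes of desaturation and elongation (Scd2, Elovl5, Elovl2, Fads1 and Fads2), edgeR called 0 in each comparison. Elovl5, which elongates polyunsaturated fatty acids, stood at 342, 507 and 352 CPM in ND. It stood at 448, 1331 and 1840.5 CPM in HFD and at 790.2, 1193 and 989 CPM in HFD_HDCA. Its HFD_HDCA libraries all lay above ND, where those of Elovl6 all lay below. The log2 fold change was 1.31 ± 0.44 against ND (adjusted p = 0.108) and -0.28 ± 0.43 against HFD (adjusted p = 0.740). Fads2, the delta-6 desaturase, had 0.71 ± 0.28 against ND (adjusted p = 0.146). DESeq2 called Elovl5 and Fads2 higher in HFD against ND (1.57 and 1.01, adjusted p = 0.00191 and 0.0108) and Elovl5 higher in HFD_HDCA against ND (1.29, adjusted p = 0.00943). Without HFD 1, edgeR called Elovl5, Fads1 and Fads2 higher in HFD against ND, by 1.98, 0.93 and 1.32 on the log2 scale. For NADPH supply edgeR called 0 of 3 in each comparison, and Pgd, a dehydrogenase of the pentose phosphate pathway, came nearest with -1.11 ± 0.30 in HFD_HDCA against HFD (adjusted p = 0.0759). This value was called by DESeq2 (-1.12, adjusted p = 0.00337) and without HFD 1 (-1.42, adjusted p = 0.00330).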

How the data were processed

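RNA of 9 livers was sequenced after TruSeq library preparation, per the labels. Tools listed in the submitters' processing notes are Cufflinks 2.0.2 and TopHat 1.3.2, with the build mm10. The authors deposited a count of reads per gene for each library (HTSeq, per the file names, which carry the word antisense; version and annotation not stated) and, per the file headers, FPKM per gene from Cufflinks. Reads assigned to no gene, 27.9 to 36.1% of a file, stayed out of all steps. Tests on the counts used edgeR 4.0.16 (R 4.3.3): filterByExpr (minimum count 10, 12587 genes), TMM scaling, 1 model of 9 libraries with a coefficient per diet, robust quasi-likelihood F tests, two-sided, with Benjamini-Hochberg adjustment and a threshold of 0.05. A standard error (SE) is that implied by F. An exact permutation test of 3 against 3 cannot go below p = 0.1.

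Alternatives were DESeq2 1.42.0, other scalings, filters and libraries, and limma 3.58.1 on log2 of the deposited FPKM plus 1 or 0.1. The scripts were tested on simulated data. Groups come from the titles. Nothing in the labels says that livers came from separate cages or litters, so p-values measure the spread between these samples; replicate pairs differed beyond counting error (chi-square per degree of freedom 11.1 to 90.8). Floors in CPM cover counting error only. The genes were named by role: the 10 lipogenic genes and the pathway lists by symbol, and the 8 genes nearest in pattern. Members and lists were chosen with earlier results of these data known. Some further pathway genes are not reported here.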

Additional observations from a re-analysis of the deposited data

How the results depend on the processing

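The fall of Srebf1, Thrsp and Mid1ip1 with HDCA against HFD was called under all 20 alternatives, and that of Fasn was lost in the fit of only the 2 groups compared, with the replicate block, and without HFD_HDCA 1 or HFD_HDCA 3. The number of the 10 genes called was 1 in HFD against ND (2 with DESeq2 and 2 with only the 2 groups compared; 0 to 2 when leaving out 1 library), 4 in HFD_HDCA against HFD (3 to 7) and 2 in HFD_HDCA against ND (4 with DESeq2, 5 with only the 2 groups compared, 0 to 5). The 7 were reached without HFD 1, the 0 in the last comparison without ND 1 and its 5 without HFD 3. Over all genes, 120 were called in HFD against ND (362 with DESeq2, 576 without both HFD 1 and HFD_HDCA 1, 32 to 226 when leaving out 1 library). In HFD_HDCA against HFD, 428 were called (1036 with DESeq2, 134 with only the 2 groups compared, 977 without both, 283 from unfiltered FPKM, 127 to 672 when leaving out 1). In HFD_HDCA against ND, 815 were called (1321 with DESeq2, 523 from unfiltered FPKM, 196 to 1213). Fewer genes or samples enter some of these fits; otherwise the cause was not tested. The split in HFD_HDCA against HFD was 210 higher and 218 lower, and 128 and 312 with library sizes only, or 132 and 362 from FPKM. Against ND it was 460 and 355, and 285 and 427 with library sizes only. HFD against ND had 60 and 60, and 98 and 57 from FPKM. No alternative scaling moved the median fold change of all genes by more than 0.085 on the log2 scale, and the signs of the 10 genes were the same under each. Signs of the 10 genes turned only near 0. In HFD against ND without HFD 3 the log2 fold change was -0.039 for Acaca (-0.039 to 0.76 when leaving out 1 library), -0.18 for Me1 (-0.18 to 0.83) and -0.14 for Scd1 (-0.14 to 0.92). In HFD_HDCA against HFD without HFD 3 it was 0.13 for Me1 (-0.88 to 0.13). In HFD_HDCA against ND it was 0.16 for Me1 without ND 2, 0.0076 without HFD_HDCA 1 (-0.19 to 0.16) and 0.0080 without both HFD 1 and HFD_HDCA 1. Of 31 uncalled values of 13 other pathway genes, the same alternatives, applied to them and to the pathway lists after seeing the data, turned the sign of 13 and brought 3 past the threshold. No pairing of the livers by replicate number was seen: the deviations of same-numbered libraries correlated between -0.14 and 0.15, above 0.1 in 1 of 9 pairs. These correlations cannot exclude something shared by number, and the labels do not say what the numbers mark. With the replicate block 1, 3 and 2 of the 10 genes were called (82, 328 and 715 of all genes), and the rise of Pklr with HFD and the fall of Dgat2 with HDCA against HFD had adjusted p = 0.0650 and 0.0535.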
